A study of Mus musculus with 294 samples.

Results

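Livers with low Iah1 are the 85 of 294 F2 livers in which Iah1 lay below 9.6 on the log2 intensity scale, a share of 28.9% (exact binomial 95% interval 23.8 to 34.5%, counting error only). They were chosen by the measured value of the Iah1 probe of highest mean, and they were set against all the other livers. All animals were F2 offspring of an intercross of the inbred mouse strains B6/J and A/J, and RNA of each liver was measured on 1 Affymetrix array. The labels place every animal in the same group and state no sex, age, diet or treatment, so the low-Iah1 and the other livers differ by no labelled condition. No animal was assigned a genotype or a sex from its values. Livers were classed as Eif2s3y-high or Eif2s3y-low by Eif2s3y, a gene of the Y chromosome, at 5 on the log2 scale. The first 3 digits of the title number are called the label block. Eif2s3y class and label block were taken into account in every test, apart from alternative fits that left 1 of them out.

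Iah1 is named for its likeness to an esterase of yeast that hydrolyses isoamyl acetate, and it belongs to the SGNH family of hydrolases, which cut ester bonds with a catalytic serine. Its own substrate in mouse liver is less well described. In an F2 intercross each animal carries stretches of chromosome from either grandparental strain, and genes that lie near each other are inherited together. A strain difference that acts on Iah1 in cis is then carried along with strain differences at its neighbours. For that reason the genes near Iah1 were kept apart from the genes on other chromosomes, and whether a neighbour moved with Iah1 itself or with a linked difference cannot be told apart here. A second limit holds for the whole tissue: in bulk liver, fewer cells of a type and less RNA per cell cannot be told apart.

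The promoters of Iah1, of 3 of its neighbours whose levels differed between the classes, and of Isoc2b, the most changed gene on another chromosome, are printed from the RefSeq table of build GRCm38.p6, as windows of 300 bases around each gene's start. This is the reference sequence of the B6 strain, and the sequence carried by any animal was not analysed here. Capitals mark CCAAT boxes and GC boxes (GGGCGG), on either strand.
Iah1: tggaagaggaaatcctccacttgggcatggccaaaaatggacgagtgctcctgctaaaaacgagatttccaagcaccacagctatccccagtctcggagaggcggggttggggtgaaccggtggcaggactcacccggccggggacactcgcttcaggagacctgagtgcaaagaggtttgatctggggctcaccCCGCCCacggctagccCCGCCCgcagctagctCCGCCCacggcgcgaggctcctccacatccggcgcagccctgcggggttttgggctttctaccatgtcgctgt
Itgb1bp1: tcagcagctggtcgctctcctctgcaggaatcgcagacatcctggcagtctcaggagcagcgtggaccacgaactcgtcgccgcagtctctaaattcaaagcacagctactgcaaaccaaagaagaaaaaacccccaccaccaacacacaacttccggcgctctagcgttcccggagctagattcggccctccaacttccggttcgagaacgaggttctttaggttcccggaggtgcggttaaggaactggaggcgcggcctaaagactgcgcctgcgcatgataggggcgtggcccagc
Rrm2: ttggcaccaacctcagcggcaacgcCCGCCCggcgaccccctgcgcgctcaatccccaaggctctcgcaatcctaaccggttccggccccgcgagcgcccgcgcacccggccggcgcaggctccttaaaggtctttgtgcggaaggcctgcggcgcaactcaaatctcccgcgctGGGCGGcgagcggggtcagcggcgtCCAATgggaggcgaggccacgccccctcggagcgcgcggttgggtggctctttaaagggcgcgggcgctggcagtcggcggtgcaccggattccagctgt
Pdia6: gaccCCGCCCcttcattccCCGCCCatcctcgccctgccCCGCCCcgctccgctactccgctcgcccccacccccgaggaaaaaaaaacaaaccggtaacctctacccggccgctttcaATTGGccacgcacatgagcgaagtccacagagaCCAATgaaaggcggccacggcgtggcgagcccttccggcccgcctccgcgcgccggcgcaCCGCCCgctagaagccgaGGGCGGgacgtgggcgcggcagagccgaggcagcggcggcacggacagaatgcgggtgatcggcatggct
Isoc2b: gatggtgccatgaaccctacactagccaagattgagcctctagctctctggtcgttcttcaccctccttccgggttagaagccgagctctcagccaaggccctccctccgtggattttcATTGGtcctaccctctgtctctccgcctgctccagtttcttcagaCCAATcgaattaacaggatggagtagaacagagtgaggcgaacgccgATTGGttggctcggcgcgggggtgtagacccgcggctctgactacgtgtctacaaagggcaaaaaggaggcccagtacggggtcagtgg
The Iah1 window is chr12:21316142-21316441 on the plus strand and holds 3 GC boxes and no CCAAT box. The Itgb1bp1 window, chr12:21286235-21286534 on the minus strand, holds neither motif and overlaps the promoter window of Cpsf3, the gene on the opposite strand. The Rrm2 window, chr12:24708004-24708303 on the plus strand, holds 1 CCAAT box and 2 GC boxes. The Pdia6 window, chr12:17266339-17266638 on the plus strand, holds 2 CCAAT boxes and 5 GC boxes. The Isoc2b window, chr7:4866130-4866429 on the minus strand, holds 3 CCAAT boxes and no GC box. Of 32851 promoter windows in the table, 37.4% held CCAAT, 35.7% held GGGCGG and 13.6% held TATAAA, which none of the 5 windows held. These matches describe letters and show no binding.

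The levels that set the classes are given as a description. In the low-Iah1 livers the chosen Iah1 probe read 8.43 at the lowest, 8.90 at the median and 9.44 at the highest on the log2 scale, against 9.76, 10.43 and 11.43 in the other livers. The means were 8.91 ± 0.22 (SD, n = 85) in low-Iah1 livers and 10.52 ± 0.37 (SD) in the other livers, a difference of -1.60 or 3.04-fold. The 3 livers just inside the threshold read 9.44, 9.42 and 9.4, and the 3 just outside read 9.76, 9.83 and 9.88, so an empty stretch of 0.31 separated the classes. A dimmer Iah1 probe overlapped widely: it read 4.36, 4.67 and 5.08 (lowest, median and highest) in low-Iah1 livers and 4.32, 4.78 and 5.2 in the other livers, close to the array medians of 4.40 to 4.53.

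**Figure D1:**
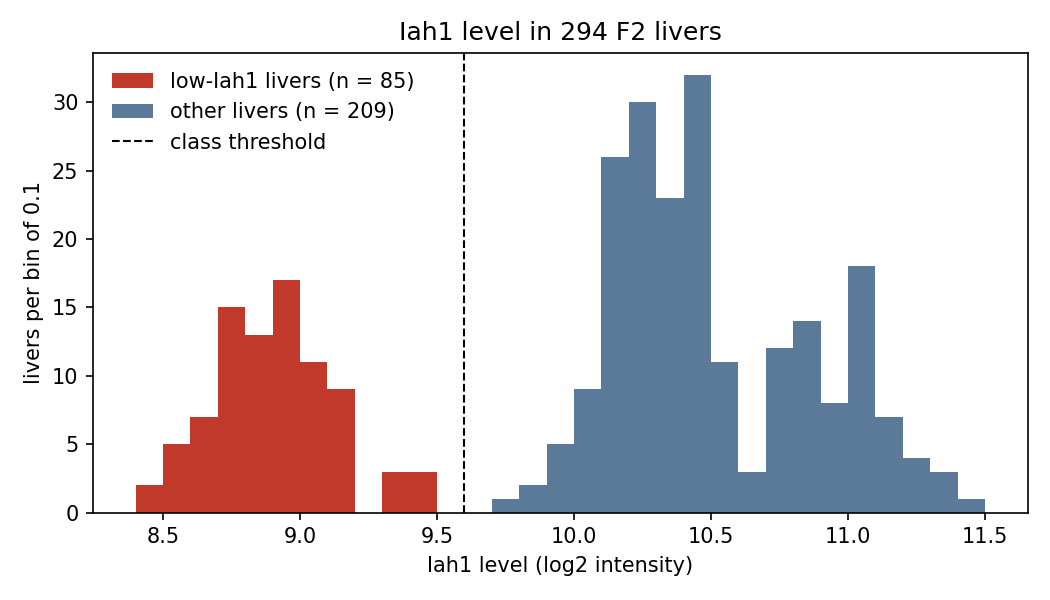
Number of livers per bin of 0.1 along the Iah1 level (log2 intensity), with the 85 low-Iah1 livers in red, the other livers in blue and the class threshold of 9.6 as a dashed line. No liver lies between 9.44 and 9.76, and the other livers thin out again near 10.6.

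The classes were alike in array medians but less so in the share of arrays that stood apart from the rest. Array medians on the linear scale ran over 21.3 to 23.2 in low-Iah1 livers and 21.1 to 23.2 in the other livers, both with a median of 22.1. Of the 32 arrays least like the rest, 5 were of low-Iah1 livers and 27 of other livers. Low-Iah1 livers made up 26.7% of the Eif2s3y-high livers (39 livers, exact interval 19.7 to 34.7%) and 31.1% of the Eif2s3y-low livers (46 livers, 23.7 to 39.2%). Each of the 15 label blocks held between 2 and 10 of them. As a check of the tissue, none of the 8 measured hepatocyte markers lay below the array medians, and their summed intensity was 107421, 113924 and 119406 (lowest, median and highest) in low-Iah1 livers, against 107153, 114105 and 120558 in the other livers.

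Low Iah1 went with a limited set of genes, most of them on its own chromosome. Among 16642 genes other than Iah1, 60 passed an adjusted p of 0.05 in limma (0.361% of those tested), of which 35 were lower (0.21%) and 25 were higher (0.15%) in low-Iah1 livers. Chromosome 12, which carries Iah1, held 45 of the 60 calls among 559 tested genes (8.05%). The other chromosomes held 15 calls among 16038 genes (0.0935%). The 45 genes that could not be placed held 0 calls, with 5 at an unadjusted p under 0.05. Of the chromosome 12 calls, 25 were lower and 20 higher, so no single direction went with low Iah1.

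**Figure D2:**
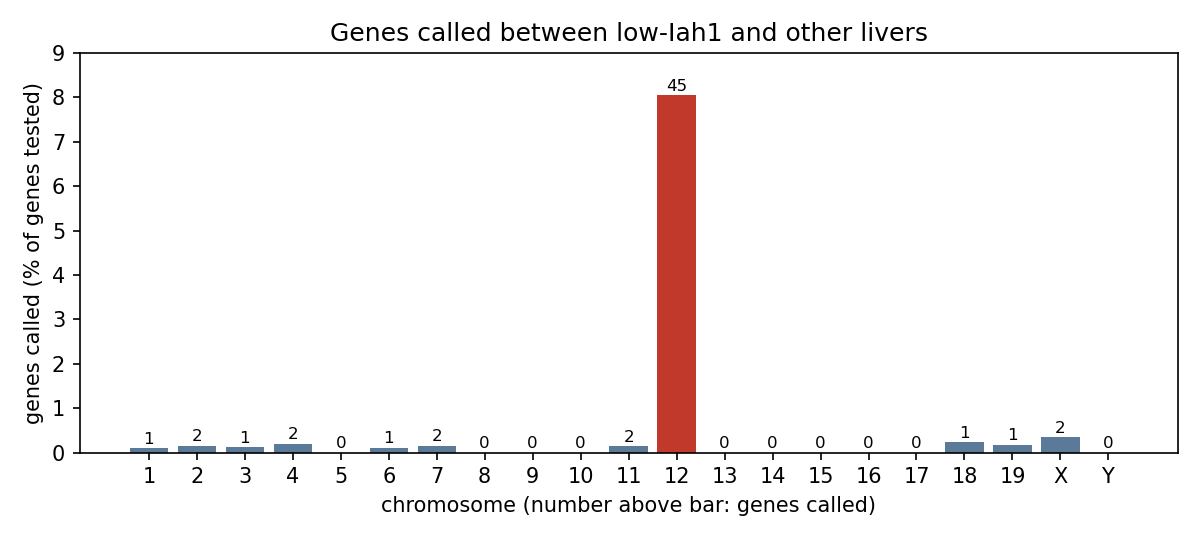
Genes called at an adjusted p under 0.05 (limma) between low-Iah1 and other livers, as a percent of the genes tested on each chromosome, with the number called above each bar. Chromosome 12 stands at 8.05% with 45 genes, and no other chromosome has more than 2.

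Adi1 showed the smallest adjusted p of all genes tested, each by its brightest probe. It encodes acireductone dioxygenase, which acts in the methionine salvage pathway, the route that recovers methionine from the by-product of polyamine synthesis. Adi1 read 9.07, 9.84 and 10.47 (lowest, median and highest) in low-Iah1 livers, against 9.54, 10.52 and 11.20 in the other livers. The ranges overlap from 9.54 to 10.47, a stretch that holds the low-Iah1 median. Few livers lay on the far side of 10.18, the midpoint of the class medians. Below it lay 80 of the 85 low-Iah1 livers and 6 of the other livers. The fitted difference was -0.73 ± 0.033 (SE), or 1.66-fold lower, with an adjusted p of 9.06e-60, and Adi1 was lower in each of the 15 blocks. It is the 23rd measured gene after Iah1 in gene order.

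The genes closest to Iah1 differed in both directions. Of the 20 measured genes within 10 places of Iah1, 10 were called (50%), 6 lower and 4 higher. The 10 that were not called differed by only -0.03 to 0.05, with adjusted p-values of 0.515 or more. Among the uncalled was Odc1, the first enzyme of polyamine synthesis, at -0.03 (adjusted p 0.766). The immediate neighbour before Iah1, Cpsf3, which cuts messenger RNA at its 3 prime end, was lower by a small amount (-0.10 ± 0.014, adjusted p 6.99e-09). The immediate neighbour after it, Adam17, the protease that sheds TNF from the cell surface, was also lower (-0.21 ± 0.028, adjusted p 4.06e-10).

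Among genes of cell adhesion and signalling, Itgb1bp1, whose protein binds the tail of integrin beta 1, read 5.85, 6.54 and 7.44 in low-Iah1 livers, against 6.39, 6.90 and 7.44 in the other livers. Its ranges overlapped over much of their length, and its fitted difference was -0.37 ± 0.029 (adjusted p 9.40e-27). Asap2, a regulator of Arf GTPases listed under the older symbol Ddef2, was higher by 0.35 ± 0.043 (adjusted p 2.69e-11). Ywhaq, a 14-3-3 adaptor protein, was higher by 0.10 ± 0.014 (adjusted p 6.56e-09). Each of these 3 genes kept its direction in all 15 blocks.

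Among genes of transcription, Klf11, a Krüppel-like factor, read 5.13, 5.91 and 6.47 in low-Iah1 livers, against 5.70, 6.31 and 7.21 in the other livers. The fitted difference was -0.42 ± 0.037 (1.34-fold lower, adjusted p 1.12e-21). Taf1b, part of the factor that brings RNA polymerase I to ribosomal DNA, was higher by 0.34 ± 0.037 (adjusted p 1.52e-14). Grhl1, a grainyhead-like factor, was lower by 0.14 ± 0.035 on the log2 scale (adjusted p 0.024). Its level was low in all livers, with a highest value of 4.62, and its call was lost under 5 of the alternatives.

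Rrm2, the small subunit of the ribonucleotide reductase that makes deoxyribonucleotides, was among the 3 largest differences near Iah1. It read 3.32, 4.14 and 5.30 in low-Iah1 livers, against 3.76, 4.86 and 6.41 in the other livers. The low-Iah1 median thus lay below the median probe of every array, while the other livers' median lay above it. The fitted difference was -0.71 ± 0.058 (1.63-fold lower, adjusted p 4.79e-24). A second Rrm2 probe differed by -0.83.

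Lpin1 and Pdia6 lie before Iah1, 14 and 8 places away. Lpin1 encodes lipin 1, a phosphatidate phosphatase that makes diacylglycerol for triglyceride synthesis and also acts with transcription factors of fat oxidation. It read 6.26, 7.71 and 9.06 in low-Iah1 livers, against 6.20, 8.38 and 10.52 in the other livers. Its spread was wide and the lowest reading was in the other livers, yet the fitted difference was -0.70 ± 0.083 (1.62-fold lower, adjusted p 2.47e-12). Pdia6, a disulfide isomerase that helps proteins fold in the endoplasmic reticulum, moved the other way, at 10.47, 11 and 12.03 in low-Iah1 livers against 9.58, 10.64 and 12.04 in the other livers. It was higher by 0.40 ± 0.040 (1.32-fold, adjusted p 1.07e-16). A second probe of each gene differed in the same direction, by -0.96 for Lpin1 and 0.41 for Pdia6.

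Next to Adi1 lie further genes with small adjusted p-values. Colec11, a liver-made collectin that binds sugars on microbes and starts the lectin pathway of complement, read 7.31, 8.19 and 8.69 in low-Iah1 livers, against 7.64, 8.51 and 9.16 in the other livers. It was lower by 0.36 ± 0.027 on the log2 scale (adjusted p 5.28e-28). Trappc12, a subunit of a vesicle-tethering complex listed as Ttc15, was higher by 0.27 ± 0.020 (adjusted p 1.11e-27). As a mean over its 3 probes Trappc12 was higher by 0.11, its dimmer probes differing by -0.006 and 0.083. Sntg2, a syntrophin that links membrane proteins to the cytoskeleton, read 5.43, 7.03 and 7.84 in low-Iah1 livers, against 4.90, 6.49 and 7.67 in the other livers. Its fitted difference was 0.58 ± 0.061 (1.5-fold higher, adjusted p 6.04e-16). Acp1, a small phosphotyrosine phosphatase, differed by 0.18 ± 0.018 on its brightest probe (adjusted p 3.15e-17), but its mean over all 3 probes turned the sign, at -0.019 (adjusted p 0.766).

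The share of called genes was highest around Iah1 and lower farther along the chromosome. Within 25 places of Iah1, 21 of 50 genes were called (42%), and over the rest of the chromosome 24 of 509 (4.72%). It was 36% of the 25 genes just before Iah1 and 48% of the 25 just after it. Farther after Iah1 it was 20% over places 26 to 50, 16% over places 51 to 100, 10% of the next 50 genes and 6% of the 50 after those. The farthest called gene after Iah1 was Snapc1, a subunit of the complex that starts small nuclear RNA genes. Beyond place 200 limma called 0 genes, and 36 had an unadjusted p under 0.05. With only 0.361% called over all genes, 0 calls there are no result about where the differences end. The side before Iah1 has only 64 measured genes, and Hs1bp3 at place 39 was the farthest of them to be called. Over the whole chromosome the 45 called genes differed by 0.079 to 0.73 in size, with a median of 0.19, and 5 by 0.5 or more.

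**Figure D3:**
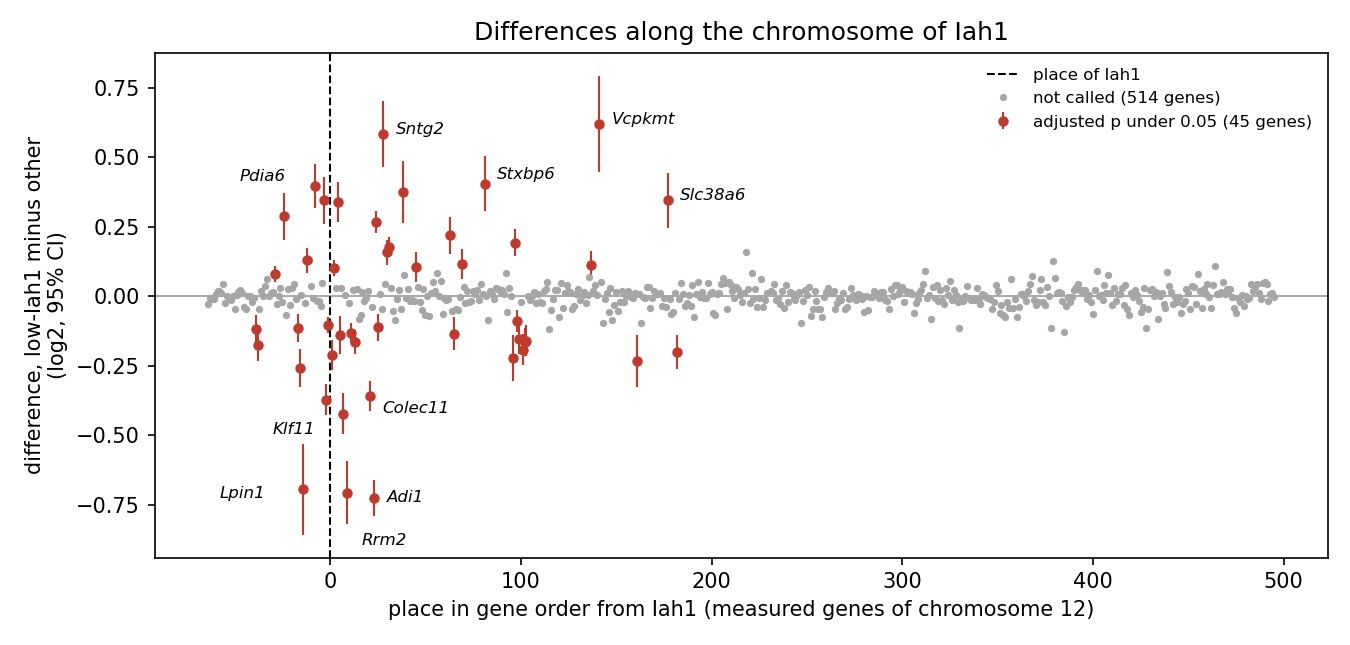
Fitted log2 difference, low-Iah1 minus other livers, for the 559 tested genes of chromosome 12 in gene order, with Iah1 at 0. Red points with 95% confidence intervals are the 45 genes called by limma, which lie above and below the zero line and end before place 200, and grey points are the genes not called.

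Some of the larger differences lay far from Iah1. Vcpkmt, which methylates the ATPase VCP and is listed as Gm71, lies over 100 places after Iah1. It read 5.36, 7.38 and 8.25 in low-Iah1 livers, against 4.68, 6.76 and 8.0 in the other livers. It was higher by 0.62 ± 0.087 (1.54-fold, adjusted p 7.22e-09). Slc38a6, an amino acid transporter of the SNAT family that lies farther still, was higher by 0.35 ± 0.050 (adjusted p 1.95e-08). Stxbp6, a syntaxin-binding protein at place 81, was higher by 0.41 ± 0.051 (adjusted p 2.69e-11).

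Several genes were read by more than 1 probe. Of the 45 called genes on chromosome 12, 19 had several probes: in 13 another probe was called in the same direction, in 4 no other probe was called, and in 2, Acp1 and E2f6, another probe was called in the opposite direction. Smc6, part of a DNA repair complex, was higher on each of its 4 probes, by 0.22 to 0.31. The probes of Adam17 were all lower, at -0.21, -0.11 and -0.76, and their mean differed by -0.36. E2f6, a repressor of the E2F family 12 places before Iah1, was higher by 0.13 on its brightest probe and differed by -1.27 ± 0.046 on a dimmer one (adjusted p 5.22e-78 over all probes). Acp1 differed by 0.18, -0.05 and -0.19 on its 3 probes. For these 2 genes no direction of the whole transcript can be given. Whether each probe reads the RNA of both strains equally was not tested, for these genes or for any other, Iah1 included. Of the 15 called genes on other chromosomes, 8 had several probes: in 1 another probe was called in the same direction, and in 7 no other probe was called.

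The 2 genes that changed most on other chromosomes were both lower. Isoc2b, on chromosome 7, encodes a protein with an isochorismatase domain. It read 4.43, 5.43 and 6.73 in low-Iah1 livers, against 5.12, 6.75 and 8.22 in the other livers. Among the 60 called genes, each by its brightest probe, it had the largest difference, -1.22 ± 0.080 (2.33-fold lower, adjusted p 4.36e-35), and it was lower in all 15 blocks. Nat8f4, a member of the N-acetyltransferase 8 family on chromosome 6 that is listed as 1700019G17Rik, read 3.97, 4.67 and 5.22 in low-Iah1 livers, against 4.37, 5.0 and 6.03 in the other livers. It was lower by 0.40 ± 0.037 on the log2 scale (1.32-fold, adjusted p 5.75e-19), also in all 15 blocks. Each has a single probe, so no second reading exists for either.

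The neighbours of these 2 genes did not pass the test, in a comparison chosen after their values were seen. Of the 20 measured genes closest to Isoc2b, 0 were called by limma and 0 had an unadjusted p under 0.05, with differences of -0.04 to 0.02. Of the 20 closest to Nat8f4, 0 were called and 2 had an unadjusted p under 0.05, with differences of -0.06 to 0.04. Over all genes tested on chromosomes other than that of Iah1, 0.0935% were called by limma and 7.81% had an unadjusted p under 0.05. With so small a share called, 0 calls among 20 genes are no result about either neighbourhood.

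The other 13 calls outside chromosome 12 were small, with sizes of 0.085 to 0.20 and adjusted p-values of 0.00217 to 0.0498, and 8 were lower. They include 2 amino acid transporters that were higher, Slc1a4 (0.17, adjusted p 0.00217) and Slc1a1 (0.11, adjusted p 0.0116). Cyp20a1, a cytochrome P450 of little-known substrate, was higher by 0.12 (adjusted p 0.00942). Zhx3, a zinc finger and homeobox repressor, was lower by 0.11 on the log2 scale (adjusted p 0.0115), and Btnl9, a butyrophilin-like protein, by 0.20 (adjusted p 0.0151). These small calls were fragile: of the alternatives, 6 lost the call of Zhx3, 5 each those of Slc1a1 and Btnl9, and 3 each those of Slc1a4 and Cyp20a1. As a mean over all its probes Zhx3 differed by -0.05 (adjusted p 0.32) and Slc1a1 by 0.04 (adjusted p 0.343), and no other probe of Zhx3, Slc1a1 or Btnl9 was called. Slc1a1 also read below the median probe of every array in all livers, with a highest value of 3.83 in low-Iah1 and 3.82 in other livers. Without the 32 least correlated arrays the calls on other chromosomes numbered 9, and among genes brighter than the median gene they numbered 6.

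The differences were then set side by side in livers that share no animal. In Eif2s3y-high livers alone limma called 43 genes (0.258%), and in Eif2s3y-low livers alone 31 (0.186%). They had 26 genes in common, which is 60.5% of the first list and 83.9% of the second, and all 26 differed in the same direction. On other chromosomes the lists held 7 and 4 genes and shared 2, Isoc2b and Nat8f4. Of the 48 genes called in either class, 45 had the same direction in both. A split by label block gave 41 calls in the odd blocks (0.246%) and 33 in the even blocks (0.198%), with 30 in common and the same direction for each of them. The difference between the Eif2s3y classes itself was called for 0 of 16642 genes by the limma interaction term (0%), with 600 at an unadjusted p under 0.05.

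**Figure D4:**
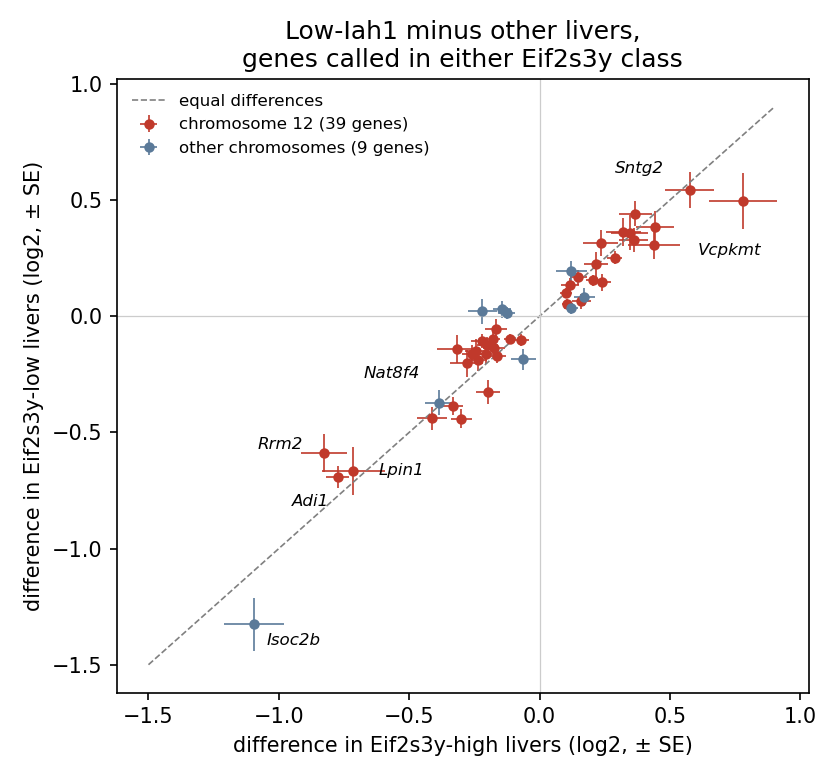
Fitted log2 difference (low-Iah1 minus other livers, ± SE) in Eif2s3y-high livers on the horizontal axis and in Eif2s3y-low livers on the vertical axis, for the 48 genes called in either class. Red points are the 39 genes of chromosome 12 and blue points the 9 genes elsewhere; the dashed line marks equal differences, and 3 of the blue points have opposite signs in the classes.

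Within the classes, Adi1 averaged 9.82 ± 0.21 (SD, n = 39) in low-Iah1 and 10.6 ± 0.24 in other Eif2s3y-high livers. In Eif2s3y-low livers it averaged 9.85 ± 0.20 (n = 46) in low-Iah1 and 10.5 ± 0.28 in other livers. Isoc2b averaged 5.66 ± 0.48 in low-Iah1 and 6.82 ± 0.66 in other Eif2s3y-high livers, and 5.30 ± 0.55 in low-Iah1 and 6.63 ± 0.66 in other Eif2s3y-low livers. Pdia6 averaged 11.2 ± 0.28 in low-Iah1 and 10.8 ± 0.34 in other Eif2s3y-high livers, and 10.9 ± 0.19 in low-Iah1 and 10.5 ± 0.33 in other Eif2s3y-low livers. Across the label blocks each called gene of chromosome 12 kept its direction in at least 11 of the 15, and 26 of the 45 did so in every block. Of the 15 called genes elsewhere 3 did so, namely Isoc2b, Nat8f4 and Zhx3. The called genes were picked by their difference over these same blocks, so the block counts are a description and no separate support.

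**Figure D5:**
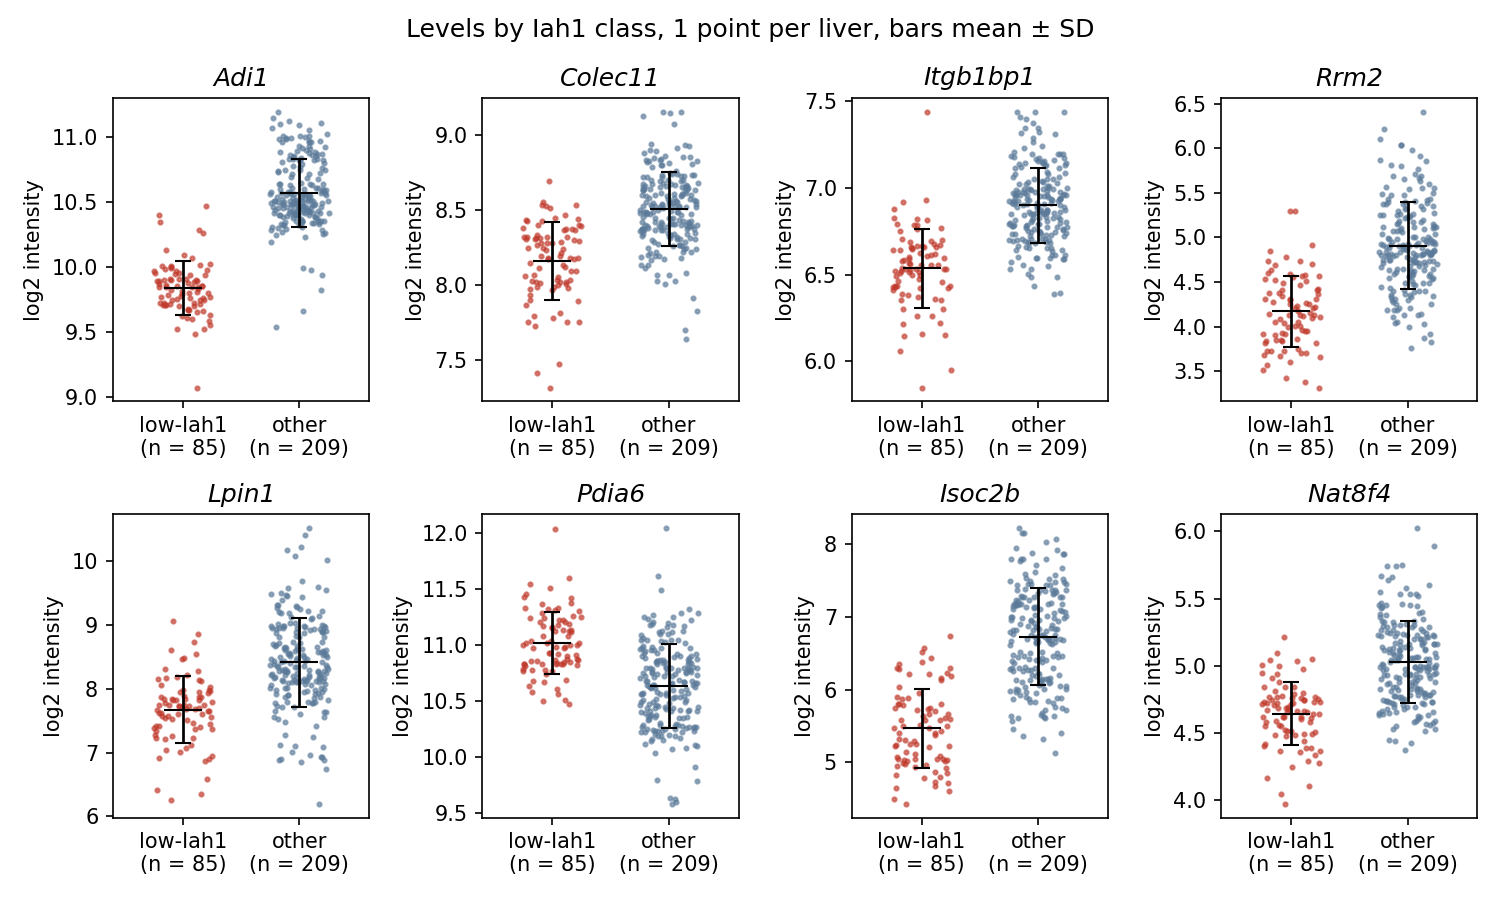
Level (log2 intensity) of 8 genes with 1 point per liver, low-Iah1 livers in red left of the other livers in blue; bars give the mean and SD. Pdia6 lies higher and the other 7 genes lie lower in low-Iah1 livers, with ranges that overlap in every panel.

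The other livers were not uniform either. Their Iah1 values leave a gap of 0.07 between 10.59 and 10.67, which was picked after the values were seen and sets 70 livers of upper Iah1 apart from the rest, called middle. Over the low, middle and upper range the median of Adi1 was 9.84, 10.46 and 10.85. The median of Isoc2b was 5.43, 6.66 and 7.21, and that of Lpin1 was 7.71, 8.25 and 8.89. Medians ran the opposite way for Pdia6, at 11, 10.75 and 10.33, and for Vcpkmt, at 7.38, 6.80 and 6.17. These medians are a description with no test, since the ranges were cut from the values. They were not adjusted for Eif2s3y class, which is tied to the Iah1 level. Among the other livers, Iah1 averaged higher in Eif2s3y-low than in Eif2s3y-high livers (10.63 against 10.41) and Pdia6 lower (10.45 against 10.81). Adi1, Isoc2b and Lpin1 also averaged lower in the Eif2s3y-low livers.

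The gene lists are set beside the shares over all genes: 0.361% were called and 8.28% (1378 genes) had an unadjusted p under 0.05. Of 28 gene lists with 334 measured genes, 25 held 0 calls in limma, with 15 genes at an unadjusted p under 0.05. With so small a share called over all genes, these counts are no result about the lists. The median differences of the lists lay between -0.06 and 0.07, beside 0.002 over all genes. In the methionine salvage and polyamine list, 1 of 22 measured genes was called, Adi1 itself. Ahcy, which clears S-adenosylhomocysteine, stood at -0.04 (adjusted p 0.410).

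Of 18 genes of triglyceride synthesis and lipoprotein assembly, 1 was called, Lpin1. Of 17 esterases and neutral lipases, 0 were called by limma and 1 had an unadjusted p under 0.05, the carboxylesterase Ces2a at -0.11 (adjusted p 0.240). Of 12 lipid droplet genes, 0 were called and 1 had an unadjusted p under 0.05, Hsd17b11 at -0.07 (adjusted p 0.269). Of 16 fatty acid synthesis genes and 19 cholesterol synthesis genes, 0 were called and 4 of each list had an unadjusted p under 0.05. The list medians of these last were 0.07 and 0.06.

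The endoplasmic reticulum stress list held 1 call among 17 genes, Pdia6, and it was higher. The list's median difference was -0.06, opposite to Pdia6, and 7 members had an unadjusted p under 0.05, where 8.28% of all genes did. The chaperone Hspa5 stood at -0.13 (adjusted p 0.506) and Creld2, another chaperone-like protein of the endoplasmic reticulum, at -0.27 (adjusted p 0.480). In the even blocks alone both turned sign, to 0.049 for Hspa5 and 0.035 for Creld2.

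Markers of cell types held no call. With only 0.361% called over all genes, this is no result about cell types. Over 12 lists of markers, 0 genes were called by limma and 3 had an unadjusted p under 0.05, and the smallest adjusted p was 0.269, for the urea cycle enzyme Cps1 (-0.05). List medians lay between -0.05 and 0.05. The summed intensity of 13 Kupffer cell and macrophage markers was 3466, 6078 and 27898 (lowest, median and highest) in low-Iah1 livers and 2139, 5809 and 19114 in the other livers. The 12 other genes whose own levels divide these livers into classes held 0 calls in limma, with 0 at an unadjusted p under 0.05. Their smallest adjusted p was 0.685, and at the share over all genes 0 calls are no result about them either.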

How the data were processed

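The authors deposited 1 table of normalized intensity values, 1 column per liver, on a linear scale; the submitters' processing notes name RMA, and its version and settings and the genome build are not given in the sources used here. Values were put on the log2 scale as they were, with neither a pseudocount nor renormalization. Of 32640 probes, 25508 had a gene symbol; the brightest probe on average stood for each of 16643 genes. Gene order came from RefSeq (GRCm38.p6). limma 3.58.1 in R 4.3.3 fitted low-Iah1 class, Eif2s3y class and label block to all 294 livers, with two-sided tests and Benjamini-Hochberg adjustment over 16642 genes, Iah1 left out. Animals are 1 array each, and their number limits the precision. The scripts were tested on simulated data. Named genes were Adi1, genes within 10 places of Iah1, up to 15 called genes of smallest adjusted p on chromosome 12 and 12 elsewhere, and up to 3 of each list; others were picked after their values were seen. Members and lists were chosen with earlier results of these data known. The 16 alternatives changed covariates, normalization, filters, thresholds, probes and livers used. Parts of the table without a gene symbol were tested separately.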

Additional observations from a re-analysis of the deposited data

Results flagged for a closer look

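Probes without a gene symbol took no part in the comparisons of genes. Tested with all other probes except those of Iah1 (32638 in all), 13 of the 7132 unnamed probes passed an adjusted p of 0.05 in limma (0.182%), 8 lower and 5 higher in low-Iah1 livers, with log2 differences of -1.51 to 0.27. At an unadjusted p under 0.05 there were 457. They carry no gene or position here, so how many lie near Iah1 was not tested.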

How the results depend on the processing

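Over the 16 alternatives the number of called genes ran from 31 to 63, on chromosome 12 from 27 to 47 and on other chromosomes from 2 to 16, against 60, 45 and 15 in the fit reported. Subsets of livers gave fewer calls: all genes numbered 31 in Eif2s3y-low livers alone and 33 in even blocks alone, and chromosome 12 genes 27 in Eif2s3y-low livers. On other chromosomes calls numbered 7 in Eif2s3y-high livers, 4 in Eif2s3y-low livers, 6 in odd blocks, 2 in even blocks, 9 without the least correlated arrays and 6 among genes above the median mean. Fewer livers or genes enter each of these. Adi1 stayed between -0.77 and -0.69, with an adjusted p of at most 1.19e-24, Isoc2b between -1.33 and -1.10 in 16 alternatives and Nat8f4 between -0.42 and -0.37 in the 15 that tested it. Averaging all probes of a gene reversed Acp1 (-0.019) and E2f6 (-0.57), whose probes disagree, and in even blocks 2 uncalled genes changed sign, Creld2 (0.035) and Hspa5 (0.049); the cause was not tested. Without the label block term the difference between Eif2s3y classes was called for 0 genes by limma, with 638 at an unadjusted p under 0.05. Of 1133 values for 72 genes under alternatives, 982 kept direction and side of the threshold, 4 reversed and the rest lost the call. The 72 include genes not called in the fit reported, for which staying uncalled counts as kept. No paired analysis was possible because the labels place all livers in 1 group. Among the genes given values, Rrm2, Asap2, Nat8f4, Grhl1, Slc1a1, Cyp20a1 and Srp54c read near or below the array medians, which limits their precision.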

Other observations

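A run of genes far from Iah1 on chromosome 12 was picked out after the values were seen. Of the 8 consecutive measured genes that begin 96 places after Iah1, 7 were called, 6 lower and 1 higher in low-Iah1 livers. The lower ones include Egln3, an oxygen-sensing prolyl hydroxylase (-0.22, adjusted p 0.000158), Snx6, a sorting nexin of the endosome (-0.15, adjusted p 7.04e-06), Baz1a, a subunit of a chromatin remodeller (-0.19, adjusted p 4.23e-08, on its brightest probe), and Srp54c, a copy of a signal recognition particle subunit (-0.16, adjusted p 2.33e-05). Baz1a lost its call as a mean over all its probes (-0.07, adjusted p 0.0841), and its dimmer probes, at -0.034 (adjusted p 0.877) and 0.012, were not called. The higher one was Sptssa, a small subunit of serine palmitoyltransferase, the first enzyme of sphingolipid synthesis (0.19, adjusted p 1.39e-10). The gene not called was Cfl2, at -0.019 (adjusted p 0.794).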
